A study of Homo sapiens with 4 samples.

Results

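The aminoacyl-tRNA synthetases are the enzymes that join each amino acid to its tRNA. Their transcripts were examined in HEK293, a cell line derived from human embryonic kidney, 24 h after RNA interference against MIF, the gene of macrophage migration inhibitory factor. The set was a list of 38 genes by symbol: 19 cytosolic enzymes, 16 mitochondrial enzymes and 3 scaffold proteins of the multi-synthetase complex, out of 18774 genes with a named probe. The data are 4 bead arrays of total RNA (Illumina Human-6). Cells transfected with MIF siRNA were on 2 arrays (called 1# and 2#, as in the labels), cells given control RNA on 1, and normal, untreated cells on 1. All were HEK293 cells of the same 24 h time point, with no other treatment given in the labels. The design text gives MIF siRNA doses of 50 and 100 pmol/ml. The label of 2# gives 50 pmol/ml, that of 1# gives no dose, and neither label says whether both carried the same siRNA sequence.

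Of the 38 genes, 35 had a named probe, and 34 of those exceeded the median signal of all probes (75.6) and were tested: 19 cytosolic and 15 mitochondrial enzymes. WARS2, AIMP2 and EEF1E1 were not analysed here for want of a named probe. AIMP1, which encodes a scaffold of the complex, gave a signal of 55.0 in 1#, 57.7 in 2#, 58.2 in control RNA and 57.0 in untreated cells. Those values lay below the median of all probes on every array, so no difference is given for it and the scaffolds could not be compared.

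A cell runs protein synthesis in 2 compartments, and most amino acids have a separate nuclear gene for the mitochondrial enzyme. GARS1 and KARS1 are exceptions, since each makes both forms, and they are counted here with the cytosolic enzymes. Several cytosolic enzymes (EPRS1, IARS1, LARS1, MARS1, QARS1, RARS1 and KARS1 among those measured) sit together with the AIMP scaffolds in the multi-synthetase complex. Uncharged tRNA activates the kinase GCN2, which raises translation of the transcription factor ATF4. ATF4 binds C/EBP-ATF response elements, whose core reads TGATGNAA, in genes of amino acid synthesis and transport and in many genes of cytosolic synthetases.

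That core was searched on both strands in RefSeq promoter sequences of GRCh38.p14, which run from 250 bases before to 50 bases after a transcription start. It was found in 7 of 16 cytosolic enzymes, in 1 of 14 mitochondrial enzymes and in 0 of 3 scaffolds, for 33 of 38 genes with a sequence. Of all 27305 genes in that table, 4.46% held it. No other motif was searched, and a match describes letters and does not show that a factor binds. The windows of 30 bases around each match are shown because these genes can then be followed through the results. They are written 5′ to 3′ in the direction of the gene, and the capitals mark the core or its reverse complement.
AARS1 (chr16:70289675-70289704, minus strand): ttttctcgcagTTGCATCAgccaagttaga
CARS1 (chr11:3057407-3057436, minus strand): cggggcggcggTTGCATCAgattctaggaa
GARS1 (chr7:30594834-30594863, plus strand): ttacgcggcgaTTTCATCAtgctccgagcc
IARS1 (chr9:92293692-92293721, minus strand): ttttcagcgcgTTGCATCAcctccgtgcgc
MARS1 (chr12:57488053-57488082, plus strand): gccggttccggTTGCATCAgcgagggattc
NARS1 (chr18:57621804-57621833, minus strand): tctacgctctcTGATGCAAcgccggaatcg
TARS1 (chr5:33440956-33440985, plus strand): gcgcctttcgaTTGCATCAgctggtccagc
YARS2 (chr12:32756076-32756105, minus strand): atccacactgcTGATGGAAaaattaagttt
In 6 of the 7 cytosolic genes the match began between 33 bases before and 15 bases after the start, and in AARS1 it began 187 bases before it. In YARS2, the mitochondrial gene, it began 197 bases before it. The letter at the free position was C in 6 cytosolic genes and A in GARS1, whereas YARS2 held G.

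Each array reported 48701 probes, with median deposited signals of 71.9 to 78.5. The probe of MIF, the siRNA target, gave 11614 in 1# and 17040 in 2# compared with 22463 in control RNA and 21908 in untreated cells. Both siRNA arrays lay below both controls, as in 28.7% of all genes tested. The mean log2 difference of MIF was -0.66 ± 0.18 (SE, 2 arrays against 2, limma adjusted p 0.0744). These arrays measure RNA and not MIF protein. Of the 10 marker genes listed for HEK293 cells, 8 of the 9 with a named probe were above the median of all probes. In the list for other cell types it was 5 of 9 (COL1A1, DCN, PTPRC, PECAM1 and APOA1), and the summed signal of those 9 was 852 to 951 per array. ALB, CD3E, CDH5 and HBB were below the median of all probes. In bulk RNA, fewer cells of a type and less RNA per cell cannot be told apart. Separate cultures are not stated for the arrays, so p-values measure the spread between these 4 arrays only, and precision is limited by their number.

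MIF siRNA arrays were compared with the control arrays to see which transcripts differ in cells given siRNA against MIF. Signals of most synthetases were lower, in both compartments. Of 34 measured enzymes, 21 had lower signals in both siRNA arrays than in both control arrays, 4 had higher signals and 9 overlapped. Among all 13755 genes tested, 28.7% were lower in all 4 pairs of a siRNA and a control array and 32.6% were higher. The lower enzymes were 13 of 19 cytosolic and 8 of 15 mitochondrial ones, and 2 of each class were higher. Among the 9224 genes above percentile 75 of all probes, 12 of 17 cytosolic and 8 of 14 mitochondrial enzymes were lower, against 31.6% of those genes. None of the 34 reached 1.5-fold in all 4 pairs, which 0.4% of all genes did downward and 0.742% upward.

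The limma fit of 2 arrays against 2 called 0 of the 34 enzymes at an adjusted p of 0.05, as it called 0% of all genes. At an unadjusted p under 0.05 there were 14 lower and 2 higher enzymes, against 12.7% and 17% of all genes. The smallest adjusted p among the enzymes was 0.0501, for NARS1 and NARS2, and the largest was 0.884. That smallest value was also the smallest among all genes, so it does not single out these 2 enzymes. The call depended on the setting. With only genes above percentile 75 of all probes, 7 of the 31 enzymes left were called, all lower (LARS1, MARS1, NARS1, YARS1, LARS2, MARS2 and NARS2). The same fit then called 10% of the 9224 genes tested. With an intensity trend in the variance it called 6 lower and QARS1 higher, with 7.32% of all genes. Without 1# it called 7 and without 2# 19, with 11.2% and 33.6% of all genes, the lone siRNA array being assumed to vary like the control pair.

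**Figure D1:**
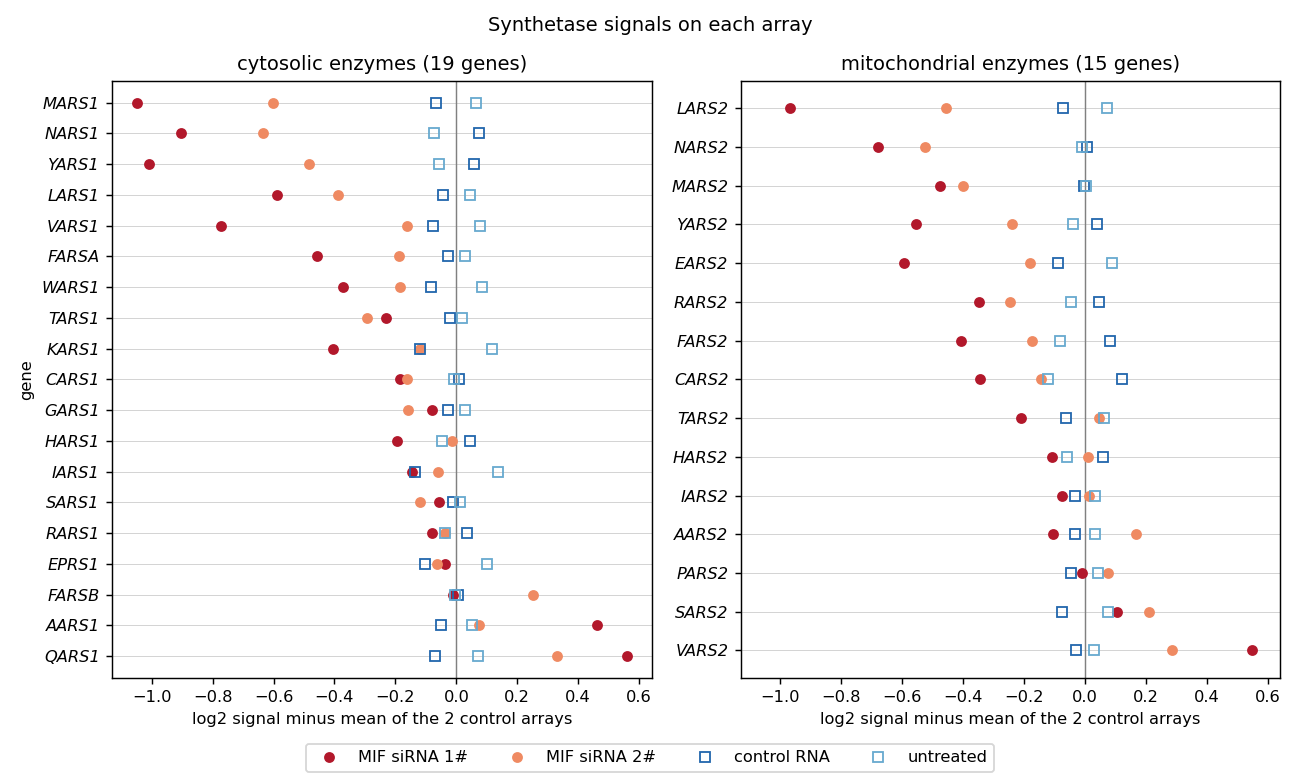
Each row is an enzyme gene, the horizontal axis is its log2 signal on an array minus the mean of both control arrays, and the 4 markers are the 4 arrays (filled circles for MIF siRNA, open squares for controls). MARS1, NARS1 and YARS1 on the left and LARS2 and NARS2 on the right lie furthest below the controls, and QARS1 and VARS2 lie furthest above them.

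Among cytosolic enzymes, NARS1, which charges tRNA with asparagine, had the largest gap between the siRNA and the control arrays. Its signal was 459 in 1# and 552 in 2# compared with 903 in control RNA and 815 in untreated cells. Both siRNA arrays lay at least 1.48-fold below both controls, and the mean log2 difference was -0.77 ± 0.12 (SE, 2 arrays against 2, limma adjusted p 0.0501). MARS1, the methionine enzyme, which also charges the initiator tRNA, gave 1179 in 1#, 1605 in 2#, 2330 in control RNA and 2552 in untreated cells. The arrays did not overlap, with at least 1.45-fold between them, and its mean difference was -0.83 ± 0.15 (adjusted p 0.0518). YARS1, the tyrosine enzyme, gave 2640 and 3804 in 1# and 2# compared with 5531 in control RNA and 5104 in untreated cells. It was at least 1.34-fold lower, by -0.75 ± 0.17 on average (adjusted p 0.0604), and in 1# it stood at 47.7% of control RNA. LARS1 charges tRNA with leucine and also acts as a leucine sensor for mTORC1. Its signals of 1726 and 1983 lay at least 1.27-fold below the 2518 and 2677 of control RNA and untreated cells, a difference of -0.49 ± 0.10 (adjusted p 0.0545).

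The other lower cytosolic enzymes were separated from the controls by less. TARS1, the threonine enzyme, gave 5168 in 1# and 4943 in 2# compared with 5979 in control RNA and 6147 in untreated cells, at least 1.16-fold lower. FARSA, the alpha subunit of the phenylalanine enzyme, gave 1795 and 2164 against 2419 and 2514, at least 1.12-fold lower. Its partner subunit FARSB did not follow: its signals of 96.6, 116, 97.8 and 97.1 overlapped, at a level close to the median of all probes. CARS1, the cysteine enzyme, was about as dim, with 95.5 and 97.0 against 109 and 108. WARS1, the tryptophan enzyme, which is known as an interferon-induced gene, gave 977 and 1112 compared with 1193 in control RNA and 1339 in untreated cells. VARS1, the valine enzyme, gave 1497 in 1# and 2288 in 2# compared with 2426 and 2698, so that 1# lay far below the other arrays and 2# only 1.06-fold below control RNA. The 1.53-fold gap between 1# and 2# made it the sole enzyme of the 34 to differ by 1.5-fold between the siRNA arrays, as did 2.14% of all genes.

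In 4 further cytosolic genes the siRNA arrays were lower by margins of 1.04-fold or less in the closest pair. GARS1, the glycine enzyme, gave 4616 and 4367 in 1# and 2# against 4787 and 4971 in control RNA and untreated cells. SARS1, the serine enzyme, gave 8351 and 7994 against 8607 and 8757. KARS1, the lysine enzyme, gave 2400 and 2927 against 2929 and 3448, so 2# was level with control RNA. RARS1, the arginine enzyme, gave 5566 and 5736 against 6038 and 5741, so 2# was level with untreated cells. EPRS1, IARS1 and HARS1 overlapped, with mean log2 differences of -0.05 ± 0.10, -0.10 ± 0.12 and -0.10 ± 0.10. Without untreated cells, EPRS1 and IARS1 stood at 0.05 and 0.03 from control RNA. IARS1 has a second probe, whose signals of 55.6 to 66.9 were below the median of all probes on all 4 arrays.

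QARS1 and AARS1 went the other way. QARS1, the glutamine enzyme and a member of the multi-synthetase complex, gave 12718 in 1# and 10851 in 2# compared with 8208 in control RNA and 9061 in untreated cells. Both siRNA arrays lay at least 1.20-fold above both controls, by 0.45 ± 0.11 on the log2 scale (adjusted p 0.0671). AARS1, the alanine enzyme, gave 8649 and 6618 against 6062 and 6508. Here 1# stood apart, at 143% of control RNA, while 2# was within 1.02-fold of untreated cells, and the mean difference was 0.27 ± 0.14 (adjusted p 0.257).

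Mitochondrial enzymes showed differences of similar size. NARS2, the asparagine enzyme of mitochondria, gave 385 in 1# and 428 in 2# compared with 619 in control RNA and 612 in untreated cells. The siRNA arrays were at least 1.43-fold lower, and the mean log2 difference was -0.60 ± 0.09 (adjusted p 0.0501). MARS2, the methionine enzyme, gave 385 and 406 against 535 and 536, at least 1.32-fold lower and by -0.44 ± 0.09 (adjusted p 0.0523). In both genes the pair of arrays within each group lay close together compared with the gap between groups. LARS2, the leucine enzyme, gave 362 in 1#, 516 in 2#, 673 in control RNA and 744 in untreated cells. It was at least 1.30-fold lower, by -0.71 ± 0.17 (adjusted p 0.0633), and 1# and 2# were themselves 1.43-fold apart.

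YARS2, the tyrosine enzyme, gave 2078 and 2590 in 1# and 2# against 3138 and 2972 in control RNA and untreated cells, at least 1.15-fold lower. RARS2, the arginine enzyme, gave 1656 and 1776 against 2175 and 2039, with the same smallest margin of 1.15-fold. FARS2, the phenylalanine enzyme, which unlike its cytosolic counterpart works as a monomer, gave 714 and 838 against 1001 and 893. The arrays of these 3 genes did not overlap, and 1# was the lowest in each. EARS2, the glutamate enzyme, gave 548 and 729 against 776 and 879. CARS2, the cysteine enzyme, gave 197 and 227 compared with 273 in control RNA and 230 in untreated cells, so that 2# and untreated cells were nearly level.

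Higher mitochondrial signals were found for VARS2 and SARS2. VARS2, the valine enzyme, gave 1597 in 1# and 1332 in 2# compared with 1070 in control RNA and 1116 in untreated cells, at least 1.19-fold higher and by 0.42 ± 0.11 (adjusted p 0.0739). SARS2, the serine enzyme, gave 1803 and 1938 against 1590 and 1766, and its closest pair was 1.02-fold apart. The remaining mitochondrial enzymes, AARS2, HARS2, IARS2, PARS2 and TARS2, overlapped between groups. Their mean log2 differences ran from -0.08 for TARS2 to 0.03 for AARS2 and PARS2, with SE of 0.09 to 0.12. After scaling to a common median, HARS2 and TARS2 stood at 0.15 and 0.05 instead of -0.05 and -0.08.

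Cytosolic and mitochondrial enzymes were compared through the median of their differences. Against the mean of both control arrays the median log2 difference was -0.17 for the 19 cytosolic and -0.25 for the 15 mitochondrial enzymes, against 0.01 for all genes. The mitochondrial median was 0.07 below the cytosolic one. These medians were the values of single genes, the dim CARS1 and, for mitochondria, CARS2. With only genes above percentile 75 of all probes the gap was 0.006. The sign of the gap depended on the arrays. In 1# the medians were -0.20 and -0.35, a gap of 0.15, whereas in 2# they were -0.16 and -0.15, a gap of -0.01. Without control RNA the gap was -0.10, and it was -0.08 after scaling the arrays to a common median. Differences ranged from -0.83 to 0.45 among cytosolic enzymes and from -0.71 to 0.42 among mitochondrial ones. The gap was not tested, and genes of a class are not replicates.

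Scaling mattered more for the mitochondrial class. After the arrays were scaled to a common median, the median difference of all genes was 0.09, and 17.4% of all genes were lower in all 4 pairs while 46.8% were higher. Under that scaling 13 cytosolic enzymes were lower and 3 higher, and 5 mitochondrial enzymes were lower and 5 higher. Relative to all genes the class medians were then -0.23 and -0.15, compared with -0.18 and -0.25 under quantile normalization.

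**Figure D2:**
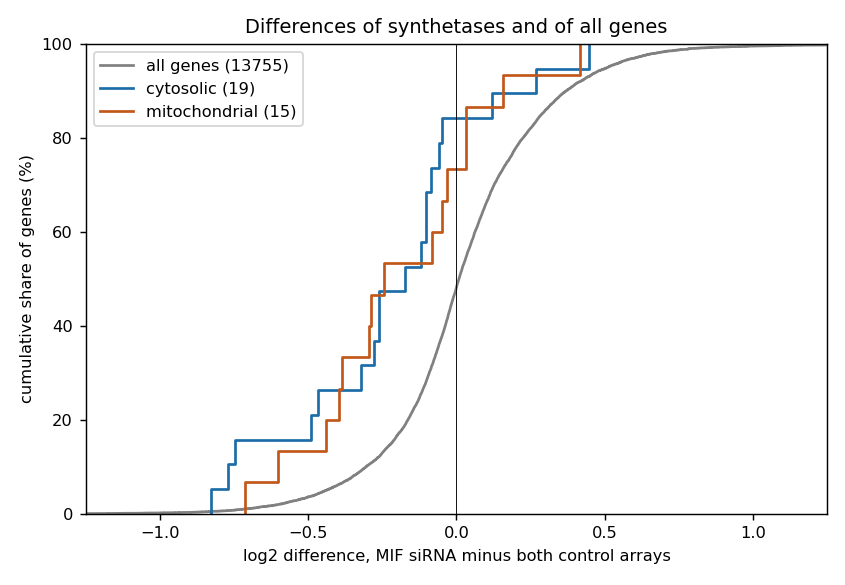
The curves give the cumulative share of genes (vertical axis, percent) at or below each log2 difference of MIF siRNA from both control arrays (horizontal axis), for 19 cytosolic enzymes, 15 mitochondrial enzymes and 13755 genes in all. Both enzyme curves lie to the left of the curve of all genes over most of the range and cross each other.

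For 12 amino acids the cytosolic and the mitochondrial gene could be set side by side. In 6 of them (asparagine, methionine, tyrosine, leucine, cysteine and arginine) both genes were lower in all 4 pairs. Taken gene by gene, 28.7% of all genes were lower in all 4 pairs and 32.6% were higher. Arginine and cysteine rest on near ties, with closest pairs 1.001-fold apart for RARS1 and 1.016-fold for CARS2. The differences were -0.77 for NARS1 and -0.60 for NARS2, -0.83 and -0.44 for MARS1 and MARS2, -0.75 and -0.40 for YARS1 and YARS2, and -0.49 and -0.71 for LARS1 and LARS2. In each compartment these 4 amino acids had the 4 lowest differences. In 2 amino acids, valine and serine, the cytosolic gene was lower and the mitochondrial gene higher, and the widest gap was for valine, with -0.47 for VARS1 and 0.42 for VARS2. Alanine had a higher cytosolic gene and an overlapping mitochondrial one, threonine a lower cytosolic gene and an overlapping mitochondrial one, and in histidine and isoleucine both overlapped. All 12 pairs share the same 4 arrays, so no correlation is given.

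**Figure D3:**
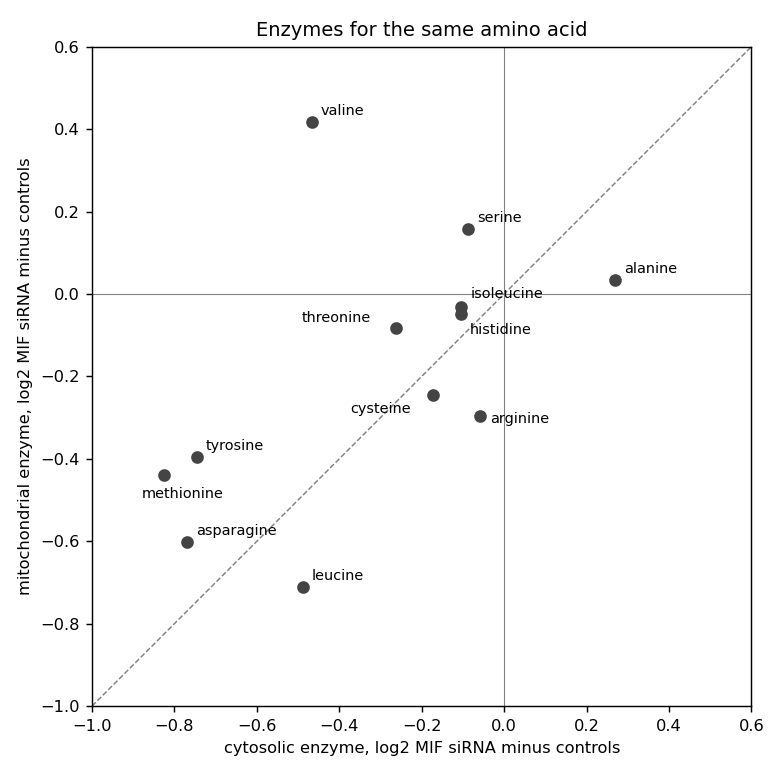
Each point is an amino acid, placed by the log2 difference of MIF siRNA from both control arrays for its cytosolic gene (horizontal axis) and its mitochondrial gene (vertical axis), with the dashed line marking equal differences. Asparagine, methionine, tyrosine and leucine lie at the lower left, and valine lies far from the line with -0.47 and 0.42.

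Enzymes of the multi-synthetase complex were found on both sides. Of the 7 measured complex enzymes, 4 were lower in all 4 pairs (MARS1, LARS1, KARS1 and RARS1), QARS1 was higher and EPRS1 and IARS1 overlapped, with a median of -0.10. Of the 12 outside the complex, 9 were lower and AARS1 was higher, with a median of -0.22. The difference between these groups was not tested. By catalytic fold, a grouping added after the values were seen, 13 of 17 class I and 8 of 16 class II enzymes were lower, compared with 28.7% of all genes, with medians of -0.30 and -0.10, and this difference was not tested either. EPRS1 was left out of that count because it joins an enzyme of each class.

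Genes that hold the TGATGNAA core did not share a direction. Of the 7 cytosolic genes listed above with it, 5 were lower (MARS1, NARS1, TARS1, CARS1 and GARS1), AARS1 was higher and IARS1 overlapped. YARS2, the mitochondrial gene with the core, was lower, with a mean difference of -0.40. Of the 9 cytosolic genes whose sequence lacked it, 5 were lower, QARS1 was higher and 3 overlapped. Medians were -0.17 and -0.09, and the share of all genes lower in all 4 pairs was 28.7%. NARS1 and MARS1, with the largest differences, have the core spelled TGATGCAA within 15 bases of the start, and so do TARS1, CARS1 and IARS1, whose mean differences were -0.26, -0.17 and -0.10. The promoter table held no sequence for LARS1, VARS1, YARS1, AARS2 and VARS2.

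The siRNA arrays were not alike in the size of their differences. Over all probes, log2 signals of 2# correlated at 0.9956 with 1#, 0.9956 with untreated cells and 0.9947 with control RNA. Those of 1# correlated at 0.9904 with untreated cells and 0.9889 with control RNA. By this measure 2# was as close to untreated cells as to 1#. Among the 21 enzymes lower in all 4 pairs, 18 had a lower signal in 1# than in 2#, and so did 73.3% of all 3949 genes that were lower in all 4 pairs. The exceptions were GARS1, SARS1 and TARS1, each within 1.06-fold. MIF itself was lower in 1#, at 51.7% of control RNA, than in 2#, at 75.9%. Whether dose, siRNA sequence or culture accounts for this cannot be told apart, since the labels give a dose for 2# only.

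**Figure D4:**
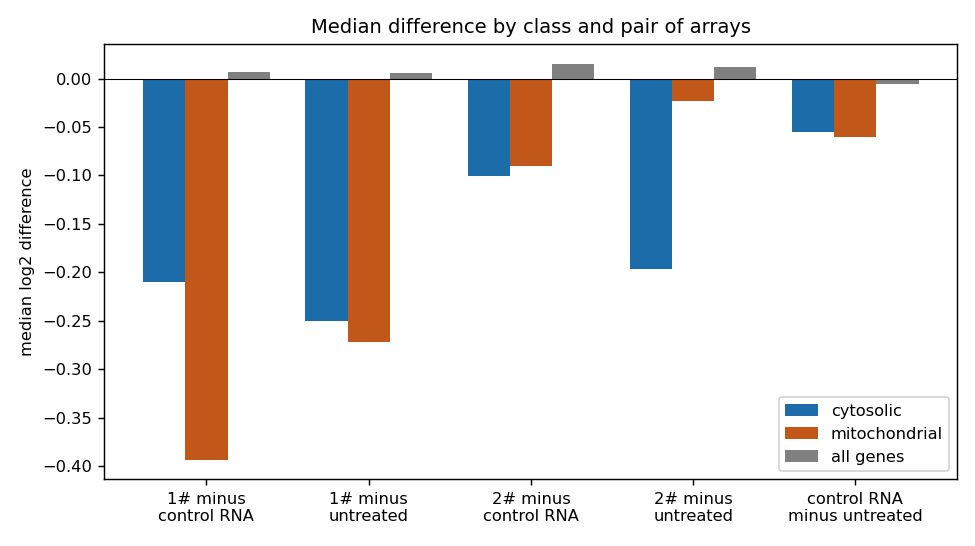
Bars give the median log2 difference (vertical axis) of the cytosolic enzymes, the mitochondrial enzymes and all genes for each pair of arrays. Cytosolic medians are -0.21 and -0.25 in 1# and -0.10 and -0.20 in 2#, and the mitochondrial median falls between -0.39 and -0.02 depending on the pair.

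Control RNA was compared with untreated cells to see what transfection alone did. The log2 difference of control RNA from untreated cells in synthetases ran from -0.27 for IARS1 to 0.24 for CARS2, with medians of -0.06 for both compartments. Control RNA was below untreated cells in 22 of 34 enzymes (64.7%), compared with 51.9% of all genes. Of the 34, 0 differed by 1.5-fold, as did 0.0945% of all genes, and limma called 0 enzymes and 0% of all genes, with 0 of the enzymes at an unadjusted p under 0.05 in either direction (0.0945% of all genes lower, 0.378% higher). Against control RNA alone the siRNA arrays gave mean differences of -0.84 for NARS1, -0.80 for YARS1, -0.76 for MARS1, -0.64 for LARS2, -0.61 for NARS2 and 0.52 for QARS1. In that fit, which rests on 1 residual degree of freedom, limma called 0 enzymes and 0% of all genes, with a smallest adjusted p of 0.252 and 9 enzymes (7 lower, 2 higher) at an unadjusted p under 0.05. The corresponding shares of all genes were 7.13% and 9.65%. Against untreated cells alone limma again called 0 enzymes and 0% of all genes, with 7 enzymes lower and 0 higher at an unadjusted p under 0.05, compared with 5.34% and 7.48% of all genes.

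Other genes of the same pathway were read from lists. In the list of other genes of tRNA charging, editing and delivery, 11 of 18 measured genes were lower in all 4 pairs and 4 were higher, against 28.7% and 32.6% of all genes, with a median of -0.13. GATC, a subunit of the mitochondrial amidotransferase that makes glutaminyl-tRNA, gave 906 and 1252 in the siRNA arrays and 1971 and 1926 in the controls. It was the sole gene of this list past 1.5-fold in all 4 pairs, as 0.4% of all genes were downward. The other subunits, GATB and QRSL1, did not follow to that extent, with mean log2 differences of -0.13 and 0.07. Among genes of tRNA processing and modification, 22 of 31 were lower and 4 higher, against the same shares of all genes, 28.7% and 32.6%, with a median of -0.29. WDR4, a subunit of the 7-methylguanosine tRNA methyltransferase, gave 964 and 1764 against 2455 and 2394. QTRT1, a subunit of the enzyme that inserts queuine, gave 169 and 263 against 387 and 342, and 0 of the 31 reached 1.5-fold in all 4 pairs. For these lists as for the enzymes, limma called 0 genes.

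The amino acid response list holds genes that ATF4 and its partners are known to induce, and the kinases upstream. Of 34 measured genes, 21 were lower in all 4 pairs and 6 higher, compared with 28.7% and 32.6% of all genes, and their median was -0.30. The higher genes were EIF2AK1, EIF2AK3, EIF2AK4, SLC1A4, SLC38A2 and SESN2, with the largest mean log2 difference, 0.50, for SLC38A2. The 7 that overlapped were CEBPB, DDIT3, PHGDH, SHMT2, CTH, NUPR1 and PPP1R15A. In every pair 4 genes of the list were at least 1.5-fold lower, as were 0.4% of all genes. ASNS, which makes asparagine, gave 2394 and 2869 in the siRNA arrays and 6084 and 5872 in the controls. SLC7A5, a transporter of leucine, methionine, tyrosine and other large neutral amino acids, gave 1106 and 3404 against 6322 and 6054. PSAT1 of serine synthesis gave 1482 and 1570 against 3127 and 3195, and MTHFD2, a mitochondrial folate enzyme, gave 494 and 523 against 863 and 799. None of these 4 overlapped the controls. The mean log2 difference was -1.67 for SLC7A5, -1.19 for ASNS and -1.05 for PSAT1, and that of WDR4 and GATC from the lists above was -0.89 and -0.87. The lowest among the synthetases was -0.83, for MARS1. The lists were chosen with earlier results of these arrays known, so they are a description beside the enzymes.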

How the data were processed

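HEK293 RNA was measured on 4 single-colour bead arrays. The authors used BeadStudio, per the submitters' processing notes (version and further steps not given in the sources used here), and deposited 1 linear intensity per probe, whose smallest value was 39.8, with no background subtraction apparent. Background left in the signal makes differences of dim genes too small. A series table of intensities, normalized between arrays by the authors, served as an alternative. Its identifiers stand 1 row off from row 19832 on, so it was matched by position. No column of another sample was in it.

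Genes were named from the platform's annotation (23687 of 48701 probes with 1 gene, 35 with several, 24979 not listed), and symbols were updated by Entrez identifier to RefSeq of GRCh38.p14 (23651 matched). Of the 35 synthetase genes with a probe, IARS1 had 2 probes and the rest 1. Intensities were quantile-normalized, with a floor of 32 that no value reached, and log2 was taken. The brightest probe represented a gene, and genes above the median of all probes (75.6) were kept, 13755 of 18774. Tests used limma 3.58.1 in R 4.3.3 (lmFit, eBayes, two-sided p, Benjamini-Hochberg adjusted over all 13755 genes, threshold 0.05), for 2 arrays against 2 (2 residual degrees of freedom) and on 3 group means (1 residual degree of freedom, lone arrays assumed to vary like the siRNA pair). In the 2-against-2 fit the difference between control RNA and untreated cells, and any between 1# and 2#, counts as spread. The steps were tested on simulated data.

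The members, lists and alternatives were chosen with earlier results of these data known. Every enzyme may be named. Signals are printed for those not overlapping between groups, and from each further list up to 4 genes past 1.5-fold in all 4 pairs, or else 2 by mean difference. Alternatives were median scaling, the series table, a normexp correction with an offset of 50, other filters, a floor of 64, the mean of all probes, an intensity trend, a 1.5-fold rule and leaving out each array.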

Additional observations from a re-analysis of the deposited data

How the results depend on the processing

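The count of 0 enzymes called against both control arrays held with the series table, the normexp correction, the mean of all probes and the floor of 64. It became 5 with median scaling (11.5% of all genes tested in that setting were called) and 4 with no filter (3.14%). With the percentile 75 filter it was 7 (10% of the 9224 genes tested), and 7 with the intensity trend (7.32%). Leaving out 1 array gave 0 to 19 calls, the latter without 2#, with 33.6% of all genes. Against control RNA alone, and for control RNA against untreated cells, 0 enzymes were called under every alternative that could be run; with a siRNA array left out no spread remained for those fits. Under the 1.5-fold rule 0 cytosolic and 0 mitochondrial enzymes were lower in all 4 pairs, and median scaling left 5 mitochondrial ones, with 17.4% of all genes. The other settings that keep all 4 arrays gave 12 or 13 cytosolic and 8 mitochondrial ones. Most of these could not move the counts. The normexp correction keeps the order of signals within an array, and the floor of 64 and the lack of a filter leave the enzymes' signals unchanged. The mean of all probes alters IARS1 only. The series table and the percentile 75 filter could change them. With 1 array left out only 2 pairs remain, in which 13 to 16 cytosolic and 8 to 12 mitochondrial enzymes were lower, the most without 2#, and the share of all genes rose to between 36.6% and 41.3%.

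The cytosolic median was -0.26 with the percentile 75 filter, which drops the dim CARS1 and FARSB, and -0.24 to -0.15 with 1 array left out. The mitochondrial median was -0.063 with median scaling. The gap between them was 0.0061 with the percentile 75 filter, -0.084 with median scaling and -0.10 to 0.15 with 1 array left out. Single enzymes that changed sign all had small differences: HARS2 and TARS2 with median scaling (0.15 and 0.054), and, with 1 array left out, EPRS1 (-0.15 to 0.052), FARSB (-0.012 to 0.25), IARS1 (-0.24 to 0.032), AARS2 (-0.10 to 0.17), HARS2 (-0.11 to 0.010), IARS2 (-0.074 to 0.013), PARS2 (-0.012 to 0.078) and TARS2 (-0.21 to 0.046). Over all 405 alternative values for the 34 enzymes, 14 changed sign. Many of the 405 could not do so. The lack of a filter, the percentile 75 filter, the raised floor and the intensity trend leave an enzyme's log2 difference unchanged. The mean of all probes alters that of IARS1 only. The share of 14 in 405 is therefore no measure of how stable the signs are. Calls are given above by setting, beside the share of all genes called. The cause was not tested. No paired analysis was possible because the control arrays carry no replicate number.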
